A study of Mus musculus with 8 samples.

Results

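The expression of 34 genes of the Notch pathway was examined in the cortex of BAF155 and BAF170 double mutant mice at P3 (postnatal day 3). The members were taken by symbol: receptors, ligands, the enzymes that modify, move or cut them, the nuclear complex, target genes and intracellular regulators. All 34 symbols matched an Ensembl identifier among the 48709 listed in the count files, and all 34 passed the filter on low counts. RNA sequencing compared 4 dcKO_hGFAP-Cre cortices with 4 control cortices, all from C57BL/6J mice. The dcKO_hGFAP-Cre mice (dcKO) carried 2 floxed alleles of each gene (BAF155 fl/fl and BAF170 fl/fl) and hGFAP-Cre. In the methods the controls carried 1 floxed and 1 wild-type allele of each gene together with the same Cre, so that both groups had Cre, whereas the sample labels call the controls wild type. The human GFAP promoter drives Cre in radial glia of the dorsal telencephalon. Neurons and glia derived from these radial glia after Cre becomes active also lack both genes. Endothelial cells, microglia and other cells of separate origin keep both genes. BAF155 and BAF170 are scaffold subunits of the BAF (mSWI/SNF) chromatin remodelling complex.

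Notch signalling passes between touching cells. A Delta or Jagged ligand on 1 cell is pulled by endocytosis, the bound Notch receptor on its neighbour is cut by ADAM10 and then by gamma-secretase, and the freed intracellular domain joins RBPJ and a Mastermind coactivator on DNA to switch on Hes and Hey genes. In the developing cortex the pathway is known for keeping radial glia as progenitors and for favouring glial over neuronal fates, and in vessels it acts in endothelial and mural cells.

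RBPJ binds DNA at the core GTGGGAA. The 250 bases upstream of RefSeq transcription starts (GRCm38.p6) were searched for this core on both strands, because the target genes are defined by this complex. It was found in 4 of 36 windows (11.1%) that belong to 28 of the members, against 1779 of 32851 windows of the whole table (5.42%). The windows of Hes5 and Hey2, which are targets, and of Lfng, which codes for a glycosyltransferase, are shown as the members with a match whose dcKO replicates differed most among themselves; capitals mark the core, read as TTCCCAC where it lies on the other strand.
Hes5: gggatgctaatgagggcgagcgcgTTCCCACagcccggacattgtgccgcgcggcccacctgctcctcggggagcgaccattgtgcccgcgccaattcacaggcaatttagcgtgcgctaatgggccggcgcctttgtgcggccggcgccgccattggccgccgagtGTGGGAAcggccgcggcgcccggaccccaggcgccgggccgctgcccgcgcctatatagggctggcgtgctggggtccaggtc
Hey2: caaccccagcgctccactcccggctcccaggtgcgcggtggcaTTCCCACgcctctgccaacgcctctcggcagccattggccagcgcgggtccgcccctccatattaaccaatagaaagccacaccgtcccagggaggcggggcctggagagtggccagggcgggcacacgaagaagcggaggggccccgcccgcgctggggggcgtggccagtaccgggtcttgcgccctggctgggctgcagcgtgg
Lfng: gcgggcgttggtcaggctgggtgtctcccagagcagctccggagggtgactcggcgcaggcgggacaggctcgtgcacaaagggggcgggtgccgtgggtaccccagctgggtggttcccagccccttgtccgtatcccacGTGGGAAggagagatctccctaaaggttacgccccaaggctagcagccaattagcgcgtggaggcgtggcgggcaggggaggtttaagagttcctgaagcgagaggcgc
The Hes5 window (chr4:154960673-154960922, plus strand) held 2 cores, which begin at positions -226 and -83 from the start. Hey2 (chr10:30842784-30843033, minus strand) had 1 core at -207, and Lfng (chr5:140607091-140607340, plus strand) had 1 at -109. The fourth match lay in 1 of the 2 windows of Psen2. The targets Hes1, Hey1 and Heyl were not searched, so that 2 of the 3 targets searched (Hes5 and Hey2, not Nrarp) held a core. A match is a description of the letters and not a measured binding site.

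Total counts were 21126713 to 31805395 in control and 22002784 to 32110285 in dcKO samples. Levels of a gene across samples are given in CPM (counts scaled by TMM-normalized library size), on which 3 counts equal 0.0906 to 0.148 CPM. Smarcc1 and Smarcc2, which encode BAF155 and BAF170, were lower in dcKO cortex (log2 fold changes of -0.97 and -0.77, adjusted p = 5.44e-06 and 2.28e-05), with every mutant below every control. Their counts include exons outside the deleted parts and cells without Cre. Of the dcKO libraries, 3 stood apart in marker genes of other cells. The summed level of 9 astrocyte markers was 1718 CPM in dcKO replicate 3, as compared with 693 to 811 CPM in the other dcKO replicates and 1243 to 1371 CPM in control. The summed level of 6 choroid plexus markers was 616 and 1178 CPM in dcKO replicates 1 and 2, as compared with 4.59 to 21.1 CPM in the others and 4.15 to 13.6 CPM in control. Most of this sum was Ttr, at 584 and 1128 CPM in dcKO replicates 1 and 2. In both libraries Folr1, Clic6, Aqp1 and Kcne2 were also above all controls, while Kl, at 1.24 and 1.10 CPM, was within its control range. Excitatory neuron markers were also lower (5 of 7, summed level 942 to 1120 CPM as compared with 1773 to 1986 CPM), as were oligodendrocyte precursor markers (7 of 7, 236 to 314 CPM as compared with 439 to 474 CPM), whereas microglia markers were higher (5 of 7, 164 to 188 CPM as compared with 94.97 to 130 CPM). Radial glia markers were split, with 4 of 8 higher and 2 lower. In bulk tissue, fewer cells of a type and less RNA per cell cannot be told apart.

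In dcKO cortex 3 of the 4 receptors, the protease gene Adam10, the ubiquitin ligase genes Mib1, Dtx1 and Dtx4, and Psen2, Numbl and Dner had lower expression, while the ligand genes Jag1 and Dll3 and the coactivator gene Maml3 had higher expression. Of the 34 genes, 13 (38.2%) passed an adjusted p of 0.05 in edgeR's quasi-likelihood test, a share close to the 37.5% of all 16525 genes tested, so that the number of changed genes was not itself a result about the pathway. Lower expression was found for 10 members (29.4%, as compared with 18.9% of all genes) and higher expression for 3 (8.82%, as compared with 18.6%). In these 13 genes the values of the 2 groups did not overlap, and no other member separated the groups in this way (34.4% of all genes did). Their direction was therefore the same in each of the 3 sequencing lanes, which all held both groups. The median log2 fold change of the members was -0.22, as compared with 0.02 for all genes, and the median absolute value was 0.31, as compared with 0.29. With scaling by library totals, which shifted the median of all genes by 0.12, 4 members were higher and 6 lower, so that the higher share of the calls was 40.0% in place of 23.1%. Without dcKO replicates 1 and 2, 2 were higher and 3 lower (Jag1 and Dll3, and Notch1, Adam10 and Dtx4). That fit had only 2 dcKO samples, and calls over all genes fell as well. It gave 1388 higher and 1581 lower genes, as compared with 3074 and 3128 with all samples. The 5 members that kept their call passed the threshold in all 17 alternatives tried.

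**Figure D1:**
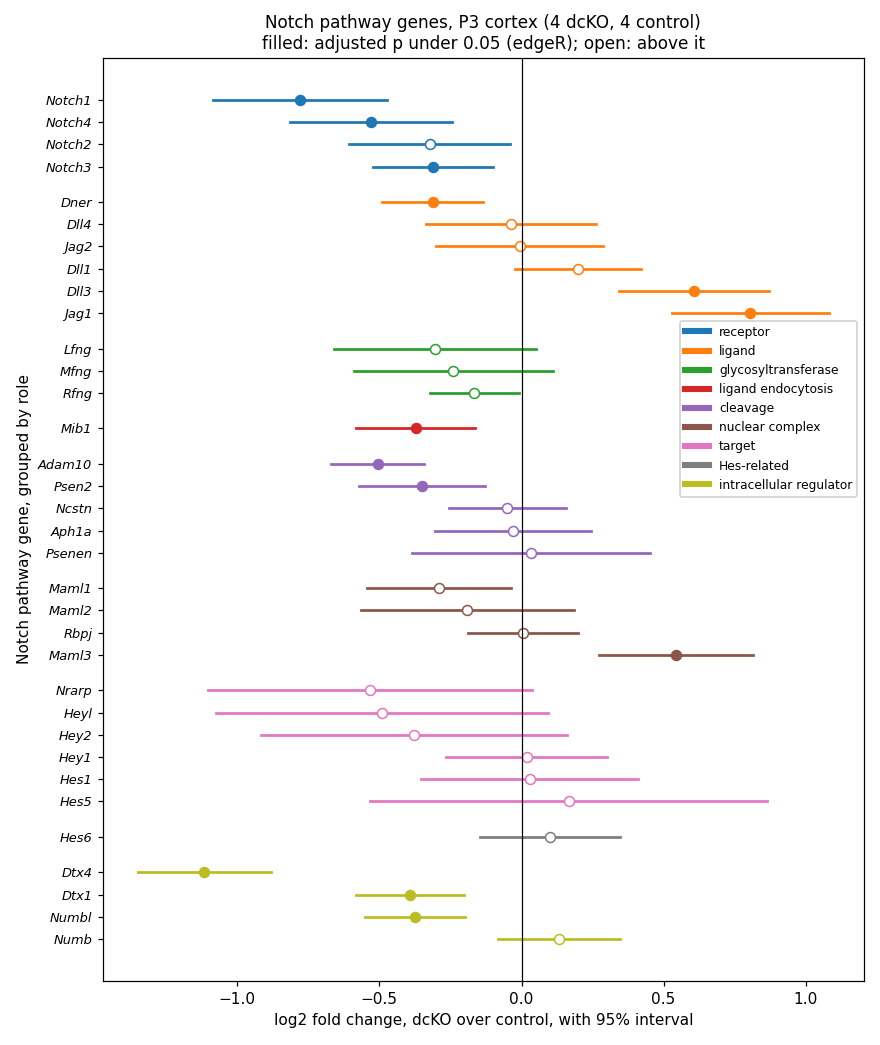
Log2 fold change of dcKO over control for each Notch pathway gene, grouped by role on the vertical axis, with lines for the 95% interval from edgeR and filled points for an adjusted p under 0.05 (4 samples a group). Dtx4 lies farthest to the left at -1.12 and Jag1 farthest to the right at 0.81, and none of the 6 target genes is filled.

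Levels of different genes were compared in TPM, which divides by exon length. Dner was the most abundant member, with 359 ± 25.3 TPM (SD, n = 4) in control cortex, followed by Dtx4 (198 ± 18.1), Rfng (184 ± 8.69), Hes6 (163 ± 15.3), Dtx1 (155 ± 15.7) and Adam10 (122 ± 6.69). The SD ranges of neighbours in this order overlapped for Dtx4 and Rfng, Rfng and Hes6, and Hes6 and Dtx1. The receptors were in the range of 4.53 TPM (Notch4) to 20.1 TPM (Notch3). Maml3 (4.65 TPM), Notch4 and Hey2 (4.30 TPM) were the least abundant, with overlapping spreads. In dcKO cortex Dtx4 fell to 90.4 ± 11.2 TPM, below Rfng, Hes6 and Dtx1.

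**Figure D2:**
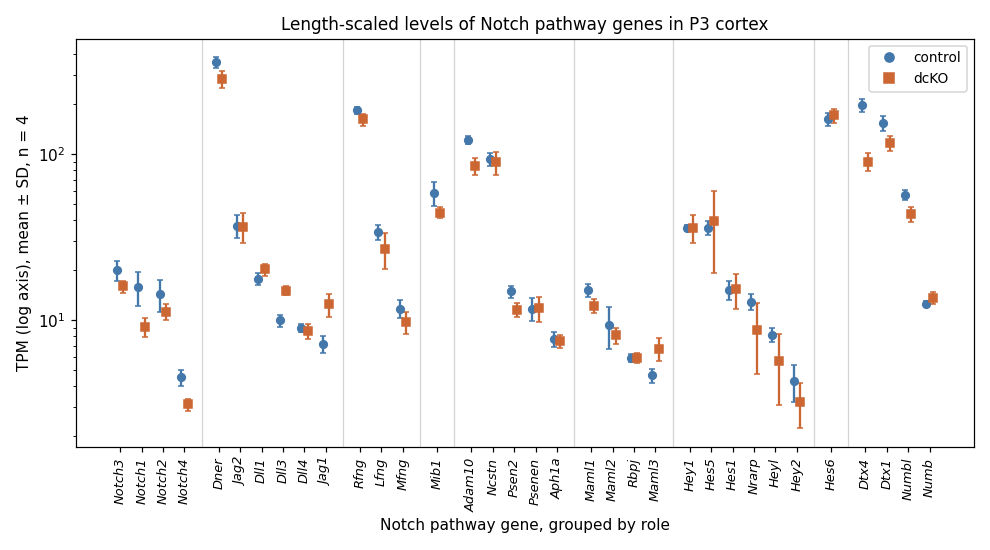
Length-scaled level (TPM, log axis) of each Notch pathway gene in control (circles) and dcKO (squares) cortex, as mean and SD of 4 samples, ordered within each role by the control level. Levels span from 4.30 TPM (Hey2) to 359 TPM (Dner) in control, and the bars of Hes5, Heyl, Nrarp and Lfng are wider in dcKO than in control.

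The receptors carry the signal into the receiving cell. Notch1 (chr2:26457903-26516663, mm10), a receptor of radial glia, was at 77.0, 50.7, 58.1 and 50.02 CPM in control replicates 1 to 4 and at 34.5, 30.1, 40.5 and 32.03 CPM in dcKO replicates 1 to 4. All mutants were below all controls, although control replicate 1 was well above the other controls. The mean fell from 58.9 ± 12.6 CPM to 34.3 ± 4.51 CPM (SD, n = 4 in both groups). The log2 fold change was -0.78 (SE 0.14, adjusted p = 0.00123), with a range from -0.87 to -0.63 on leaving out single replicates. Notch4, a receptor of endothelial cells, was at 8.51, 8.43, 10.7 and 10.6 CPM in control and at 6.88, 6.27, 6.96 and 6.40 CPM in dcKO cortex. The dcKO values were tightly grouped under the control values, with a log2 fold change of -0.53 (SE 0.13, adjusted p = 0.00761). Notch3, which is typical of mural cells and is also found in progenitors, was at 46.8, 36.4, 47.0 and 39.2 CPM in control and at 34.6, 32.8, 34.3 and 34.8 CPM in dcKO cortex. The groups lay close together without overlap, with a log2 fold change of -0.31 (SE 0.10, adjusted p = 0.0243); the call was lost when control replicate 1 or 3 or dcKO replicate 1 or 2 was left out (adjusted p up to 0.0851) and with library totals. Notch2 was at 51.2, 39.4, 38.7 and 31.5 CPM in control and at 34.4, 29.7, 34.4 and 29.98 CPM in dcKO cortex. Control replicate 4 lay within the dcKO range, and the test was not passed (log2 fold change of -0.32, SE 0.13, adjusted p = 0.0696) except without that control (adjusted p = 0.0191), without the filter on low counts (0.0386) and in the fit blocked by replicate number.

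Vessel markers were read beside the receptors. Of 10 endothelial markers 6 were lower and none higher (Pecam1, Tek, Tie1, Kdr, Erg and Flt1), and their summed level was 236 to 304 CPM in control and 130 to 224 CPM in dcKO cortex. Of 10 mural markers 1 was lower (Abcc9) and none higher, with a summed level of 216 to 259 CPM in control and 188 to 284 CPM in dcKO cortex. Their part in the receptor values was not tested.

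Among the ligands, Jag1 and Dll3 rose. Jag1 (chr2:137081456-137116644), a Jagged ligand, was at 11.4, 11.9, 11.02 and 9.51 CPM in control and at 21.6, 20.7, 15.6 and 18.7 CPM in dcKO cortex. Every mutant was above every control, and dcKO replicate 3 was the lowest of the mutants. The level was 1.75-fold higher in dcKO cortex (log2 fold change 0.81, SE 0.13, adjusted p = 4.80e-04). Dll3 (chr7:28293553-28302238), a Delta-like protein that acts inside the cell that makes it rather than activating receptors on neighbours, was at 7.64, 6.41, 7.67 and 8.05 CPM in control and at 10.7, 12.5, 10.9 and 11.5 CPM in dcKO cortex. The groups were well apart, with a 1.52-fold higher level (log2 fold change 0.61, SE 0.12, adjusted p = 0.00220).

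Dll1, the Delta ligand of newborn neurons and committed progenitors, was at 20.02, 17.7, 21.5 and 19.5 CPM in control and at 22.5, 25.0, 20.5 and 22.4 CPM in dcKO cortex. The groups overlapped in dcKO replicate 3, and the log2 fold change was 0.20 (95% interval -0.02 to 0.42, adjusted p = 0.144); with library totals it was 0.32 and passed the threshold. Dll4, the Delta ligand of endothelial cells, was at 9.25, 8.33, 9.495 and 9.09 CPM in control and at 8.29, 10.3, 9.66 and 7.09 CPM in dcKO cortex. Neither Dll4 (log2 fold change -0.04, 95% interval -0.34 to 0.26) nor Jag2, the other Jagged ligand, passed the test. Jag2 was at 81.0, 57.3, 67.5 and 64.2 CPM in control and at 68.7, 72.1, 50.6 and 77.5 CPM in dcKO cortex, a wide overlap with a log2 fold change of -0.01 (95% interval -0.30 to 0.29). Dner, a neuronal transmembrane protein described as a non-classical Notch ligand, was at 434, 458, 478 and 422 CPM in control and at 320, 374, 346 and 402 CPM in dcKO cortex. It was lower in each mutant than in any control (log2 fold change -0.31, SE 0.08, adjusted p = 0.0103), but not past the threshold with library totals or without dcKO replicates 1 and 2.

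Proneural transcription factors, which are known activators of Delta-like genes, were read beside the ligands. Neurog2 was at 1.68 to 2.49 CPM in control and at 10.8 to 15.7 CPM in dcKO cortex (log2 fold change 2.71, adjusted p = 1.13e-06), and Neurod1 also rose (0.65, adjusted p = 0.00336). Insm1 did not pass the test (log2 fold change 0.07, adjusted p = 0.716).

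**Figure D3:**
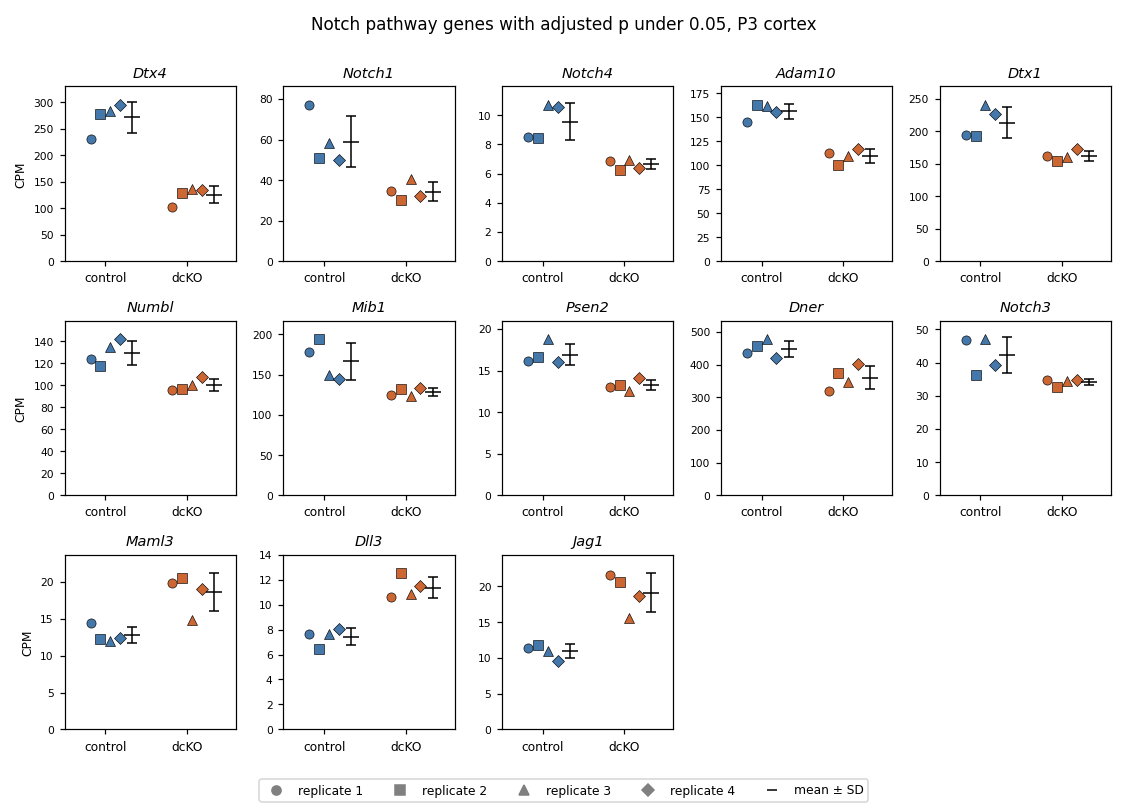
Level (CPM, axis from 0) of the 13 Notch pathway genes with an adjusted p under 0.05 in each control and dcKO sample, with a marker shape for each replicate number and mean and SD beside each group. In all 13 panels the dcKO and control points do not overlap. Notch1, Notch4, Dtx4, Jag1 and Maml3 have dcKO replicate 3 nearest to the controls.

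The Fringe glycosyltransferases add sugars to the receptors and so tune which ligand they answer to. None of the 3 passed the test. Lfng was at 24.7, 19.3, 22.5 and 22.0 CPM in control and at 17.8, 16.6, 24.4 and 13.0 CPM in dcKO cortex. All mutants but replicate 3 lay under the controls; the log2 fold change was -0.30 (SE 0.16, adjusted p = 0.163) with all samples and -0.49 (adjusted p = 0.0115) without that replicate. Mfng (log2 fold change -0.24, adjusted p = 0.260) and Rfng (-0.17, adjusted p = 0.0870) had means below control, and Rfng passed the threshold without control replicate 2 (adjusted p = 0.0489).

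Mib1 encodes the ubiquitin ligase that sends Delta and Jagged ligands into endocytosis. It was at 178, 194, 149 and 145 CPM in control and at 125, 133, 123 and 134 CPM in dcKO cortex. The controls were more spread than the mutants but did not reach them, and Mib1 fell by 0.37 on the log2 scale (SE 0.10, adjusted p = 0.00961). Adam10 (chr9:70678997-70780229), which encodes the protease of the first receptor cut, was at 145, 163, 161 and 155 CPM in control and at 113, 100.3, 109 and 117 CPM in dcKO cortex. The mutants were well below the controls, with a log2 fold change of -0.51 (SE 0.08, adjusted p = 3.24e-04). Of the 4 listed genes of gamma-secretase, which makes the second cut, Psen2 fell and the others did not pass the test. Psen2, a catalytic subunit, was at 16.2, 16.7, 18.8 and 16.0 CPM in control and at 13.1, 13.3, 12.6 and 14.1 CPM in dcKO cortex. The groups did not overlap (log2 fold change -0.35, SE 0.10, adjusted p = 0.0171), and the call was lost without control replicate 3 (adjusted p = 0.0666). The log2 fold changes of the other subunits were -0.05 for Ncstn (95% interval -0.26 to 0.16), -0.03 for Aph1a (-0.31 to 0.24) and 0.03 for Psenen (-0.38 to 0.45). Mib1 and Psen2 were also not past the threshold with library totals or without dcKO replicates 1 and 2.

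In the nuclear complex, Rbpj, the DNA-binding partner of all 4 receptors, was at 18.7, 20.6, 20.3 and 19.5 CPM in control and at 20.3, 19.4, 20.1 and 19.7 CPM in dcKO cortex. The mutants lay within the control range, with a log2 fold change of 0.01 (95% interval -0.19 to 0.20, adjusted p = 0.965). The Mastermind coactivators differed among themselves. Maml3 was at 14.4, 12.2, 11.99 and 12.4 CPM in control and at 19.8, 20.6, 14.8 and 19.1 CPM in dcKO cortex. It was higher in every mutant, least so in replicate 3 (log2 fold change 0.54, SE 0.12, adjusted p = 0.00486), and not past the threshold without dcKO replicates 1 and 2 (0.41, adjusted p = 0.0999). For Maml1 the log2 value was -0.29 (adjusted p = 0.0692), and past the threshold without dcKO replicate 3 (-0.36, adjusted p = 0.0318), with DESeq2 and with the lane as a block, and for Maml2 it was -0.19 (adjusted p = 0.410).

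None of the 6 target genes passed the test, and all 6 were highest among the mutants in dcKO replicate 3, the library with high astrocyte markers. Over all genes 29% were highest in that library, and of the members 14 (41.2%). Heyl (chr4:123233556-123249875), a Hey repressor with a known place in vessels and glia, was at 10.8, 11.2, 11.7 and 9.75 CPM in control and at 6.33, 6.65, 13.2 and 4.71 CPM in dcKO cortex. Nrarp (chr2:25180758-25183339), a feedback inhibitor that binds the receptor's intracellular domain, was at 9.44, 8.23, 9.43 and 7.78 CPM in control and at 4.53, 4.83, 10.4 and 4.26 CPM in dcKO cortex. Nrarp shares 2051 of its 2582 exon bases with the antisense gene Gm38287, whose reads cannot be told apart from its own here. Both genes had 3 mutants under all controls and replicate 3 above the top of the control range. With all samples the log2 fold changes were -0.49 for Heyl (SE 0.27, adjusted p = 0.167) and -0.53 for Nrarp (SE 0.26, adjusted p = 0.128). Without dcKO replicate 3 they were -0.89 (adjusted p = 7.75e-04) and -0.94 (adjusted p = 3.44e-04). With the lane as a block they were -0.59 (adjusted p = 0.0222) and -0.62 (adjusted p = 0.0191). Within lane 6, which held replicate 3 of both groups, the mutant was the higher, while on lanes 5 and 7 every mutant was below every control.

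Hes5 (chr4:154960923-154962371), the main Notch effector of cortical progenitors together with Hes1, was at 12.1, 11.4, 14.5 and 13.3 CPM in control and at 11.2, 11.7, 26.0 and 8.79 CPM in dcKO cortex. Hes5 shares 433 of its 1363 exon bases with Gm20421 on the other strand. Replicate 3 had 2.46 times the mean of the other mutants, a ratio above that of 99.1% of all genes, for which the median was 0.998. The log2 fold change of Hes5 was 0.17 (95% interval -0.53 to 0.86) with all samples and -0.29 (adjusted p = 0.117) without that library. Hes1 was at 8.56, 6.70, 9.26 and 7.98 CPM in control and at 6.80, 7.29, 11.4 and 7.64 CPM in dcKO cortex. The groups of Hes1 overlapped both with all samples (log2 fold change 0.03, 95% interval -0.35 to 0.41) and without replicate 3 (-0.17, adjusted p = 0.375). Hey1, a Hey repressor of progenitors, was at 31.7, 29.9, 29.3 and 32.6 CPM in control and at 29.3, 28.4, 41.2 and 26.1 CPM in dcKO cortex. Its log2 fold change was 0.02 (95% interval -0.27 to 0.30), and -0.15 (adjusted p = 0.233) without replicate 3. Hey2, best known in the heart and in arteries, was at 5.52, 6.66, 4.48 and 3.89 CPM in control and at 2.91, 4.45, 5.63 and 2.75 CPM in dcKO cortex. The groups of Hey2 overlapped, with a log2 fold change of -0.38 (95% interval -0.92 to 0.16).

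The ratio of dcKO replicate 3 to the mean of the other mutants was also high for Nrarp (2.29), Heyl (2.24), Hey2 (1.67), Hes1 (1.58), Lfng (1.54) and Hey1 (1.47). In the same library Gfap, an intermediate filament of astrocytes, was at 273 CPM as compared with 24.2 to 32.2 CPM in the other mutants and 79.3 to 89.5 CPM in control. The water channel gene Aqp4 was at 53.1 CPM as compared with 9.49 to 9.92 CPM, within its control range of 38.8 to 63.7 CPM. The glycolytic enzyme gene Aldoc was at 245 CPM as compared with 33.2 to 43.5 CPM, and at 164 to 215 CPM in control. Of the 9 astrocyte markers, 8 were highest among the mutants in this library (Gjb6 was highest in dcKO replicate 1), and in it 6 were above all controls, 2 within the control range and 1, S100b, below all controls. Of the 9 astrocyte markers 2 were lower with all samples and none higher. The summed level of the 6 targets was 61.1, 63.3, 108 and 54.2 CPM in dcKO replicates 1 to 4 and 74.1 to 78.6 CPM in control. That of 8 radial glia markers was 1290, 1541, 1987 and 1180 CPM and 1261 to 1343 CPM. Most of this radial glia sum was Fabp7, at 688, 889, 1260 and 605 CPM in dcKO replicates 1 to 4. Nes, Vim, Prom1 and Tnc were also highest among the mutants in replicate 3. Sox2 (84.3 CPM) and Pax6 (38.9 CPM) were lowest among the mutants there, and Hopx was highest in replicate 2. The part of astrocytes and radial glia in the target values was not tested. Hes6, a Hes-related gene of neuronal commitment that is not a direct target, did not share the pattern: it was at 79.3, 65.4, 77.2 and 85.6 CPM in control and at 77.8, 99.4, 82.6 and 69.8 CPM in dcKO cortex (log2 fold change 0.10, 95% interval -0.15 to 0.34).

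**Figure D4:**
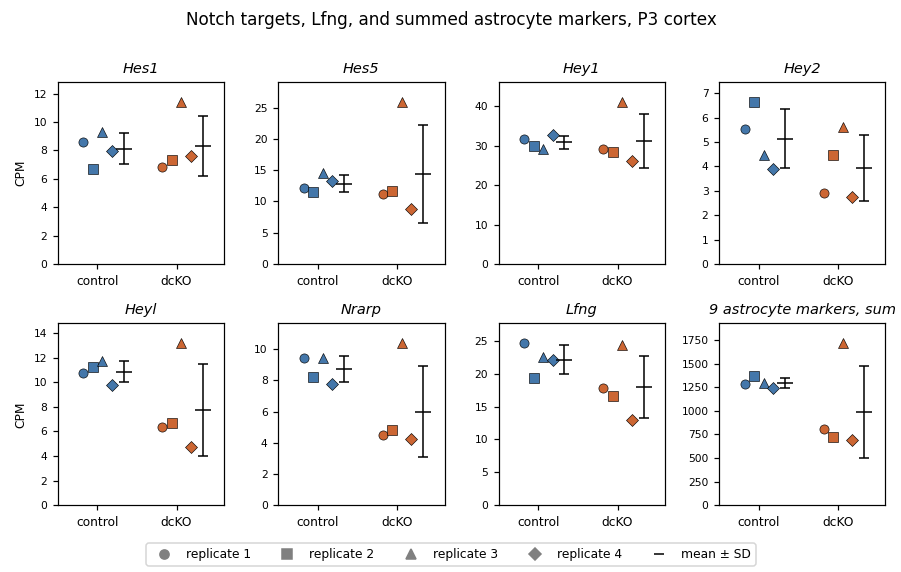
Level (CPM, axis from 0) of the 6 Notch targets, of Lfng and of the sum of 9 astrocyte markers in each control and dcKO sample, with a marker shape for each replicate number and mean and SD beside each group. The triangle of dcKO replicate 3 is the highest mutant in all 8 panels, at 26.0 CPM for Hes5 and 1718 CPM for the astrocyte sum.

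Of the intracellular regulators, Dtx4 (chr19:12466338-12501454), a Deltex ubiquitin ligase that acts on the receptor, changed most of all members. It was at 230, 277, 283 and 294 CPM in control and at 101, 129, 136 and 134 CPM in dcKO cortex. No mutant came near a control, and Dtx4 was 0.461-fold of the control level (log2 fold change -1.12, SE 0.11, adjusted p = 1.35e-05). Dtx1, another Deltex gene and itself known to respond to Notch, was at 193, 192, 240 and 227 CPM in control and at 161, 155, 160 and 173 CPM in dcKO cortex. Its groups were closer but separate, with a log2 fold change of -0.39 (SE 0.09, adjusted p = 0.00426). Numbl, an adaptor protein that counteracts Notch in neural progenitors and is also present in neurons, was at 124, 118, 135 and 142 CPM in control and at 95.3, 96.0, 100.4 and 107 CPM in dcKO cortex. It also fell in every mutant (log2 fold change -0.37, SE 0.08, adjusted p = 0.00333). Its relative Numb did not pass the test, with a log2 fold change of 0.13 (95% interval -0.08 to 0.35, adjusted p = 0.319). Dtx1, Numbl and Notch4 had an adjusted p between 0.0604 and 0.0637 without dcKO replicates 1 and 2.

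A wider list of 40 further pathway genes was read in the same fit. Of the 37 that were tested, 8 were higher and 11 lower in dcKO cortex (51.4%, as compared with 37.5% of all genes), with a median log2 fold change of -0.04. The largest changes among them were those of Tle3, a Groucho corepressor that works with Hes proteins (142.9, 133.8, 175.5 and 161.3 CPM in control, 51.2, 51.0, 52.7 and 60.3 CPM in dcKO cortex, log2 fold change -1.51, adjusted p = 1.08e-06), and of Dlk1, a non-classical Delta-like protein (1.58 to 2.52 CPM in control, 3.55 to 6.57 CPM in dcKO cortex, 1.34, adjusted p = 6.01e-04). Each mutant lay outside the control range for both genes. Higher log2 values were also found for Hdac1, a histone deacetylase of corepressor complexes (0.70, adjusted p = 0.0113), Kat2b, an acetyltransferase coactivator (0.64, adjusted p = 7.52e-04), Neurl1a, a ligase for ligands (0.64, adjusted p = 4.42e-05), and Pofut1, which adds fucose to receptors (0.41, adjusted p = 0.0103). Lower ones were found for Fbxw7, which marks the intracellular domain for breakdown (-0.67, adjusted p = 2.15e-05), Spen, an RBPJ corepressor (-0.59, adjusted p = 0.00309), Itch, a receptor ligase (-0.55, adjusted p = 0.00197), and Sel1l, a protein of endoplasmic reticulum quality control (-0.50, adjusted p = 0.00113). Hes2, Hes3 and Rbpjl did not pass the filter on low counts.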

How the data were processed

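The authors deposited raw counts per gene: TRIZOL RNA, TruSeq RNA v2 libraries, alignment to mm10 and counting with featureCounts, without normalization. Aligner, annotation, strand setting and multi-gene reads are not given in the sources used here, and reads of overlapping exons on either strand cannot be told apart. Such overlaps exist for Notch1, Notch2, Notch3, Dll1, Dll4, Dner, Aph1a, Ncstn, Psenen, Maml1, Maml2, Hes5, Nrarp, Numb and Numbl. Of 48709 identifiers, 48349 matched GENCODE M21 (same build), which also gave exon lengths for TPM.

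The main test was edgeR 4.0.16 (R 4.3.3) on all 8 samples: TMM, the default filter with a minimum count of 10, the robust quasi-likelihood F test without a block, and Benjamini-Hochberg adjustment over 16525 genes with a threshold of 0.05. Standard errors were the fold change divided by the root of F. With 70 arrangements of 4 against 4, no exact permutation p (two-sided) can be under 0.0286. Alternatives were DESeq2 1.42.0, limma-voom (limma 3.58.1), other scalings and filters, replicate number or lane as a block, and left-out libraries. The main edgeR test was also run on simulated counts. No replicates agreed within sampling noise. The methods give 4 mice per group; nothing says whether they came from separate litters.

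Values per sample are given for members with an adjusted p under 0.05 and for receptors, ligands and targets, the rest as ranges or fold changes; of the wider list, the 10 largest changes past the threshold. The members and lists were chosen with earlier results of these data known. Some genes of the lists are not reported here.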

Additional observations from a re-analysis of the deposited data

Results flagged for a closer look

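In 3 of 68 groups of 4 samples (34 genes in control and in dcKO cortex), the highest sample lay apart from the others by more than Dixon's 95% critical value allows. Chance alone gives about 3.4 such groups. For Hes5, dcKO replicate 3 was at 26.0 CPM and the next mutant at 11.7 CPM (gap of 0.831 of the range); Hes5 shares 433 of 1363 exon bases with Gm20421. For Nrarp the same library was at 10.4 CPM and the next mutant at 4.83 CPM (gap of 0.907); Nrarp shares 2051 of 2582 exon bases with antisense Gm38287. For Aph1a, control replicate 1 was at 7.87 CPM and the next control at 6.77 CPM (gap of 0.860); Aph1a shares 445 of 3450 exon bases with Car14, and its groups overlapped.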

How the results depend on the processing

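Of the comparisons of members with 17 alternatives, 516 kept their direction and side of the threshold, 15 gained and 17 lost a call, and 30 changed sign, all of them in members without a call; the causes were not tested. The number of lower members was 6 with library totals and 3 without dcKO replicates 1 and 2 together, and 8 to 14 when each replicate was left out. In the wider list, higher genes numbered 4 without dcKO replicates 1 and 2 and 5 to 8 when each replicate was left out, and lower genes 7 with library totals and 5 without dcKO replicates 1 and 2. Over all genes, 1388 were higher and 1581 lower without these 2 libraries, and library totals gave 4584 higher and 2102 lower (68.6% higher in place of 49.6%).

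Same-numbered samples did not deviate together (correlations of 0.18, -0.10, 0.19 and -0.06), so the replicate numbers are not taken as pairs. With the replicate block, 3 members were higher and 13 lower (2932 and 2982 over all genes), the additional ones being Notch2 (-0.31), Heyl (-0.59) and Nrarp (-0.62). With the lane block 13 members were lower.

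Log2 fold changes changed sign with library totals for Dll4 (0.0845), Jag2 (0.11), Ncstn (0.0699) and Aph1a (0.0885); with 10 counts in every sample for Jag2 (0.0091); with DESeq2 for Rbpj (-0.0113); with limma-voom, the replicate block and the lane block for Hey1 (-0.0029 each); and without dcKO replicates 1 and 2 for Hes6 (-0.014). On leaving out single replicates, the ranges were -0.13 to 0.0716 for Dll4, -0.0818 to 0.11 for Jag2, -0.10 to 0.0305 for Ncstn, -0.0642 to 0.0269 for Aph1a, -0.0932 to 0.17 for Psenen, -0.0252 to 0.0248 for Rbpj, -0.17 to 0.10 for Hes1, -0.29 to 0.36 for Hes5, -0.15 to 0.11 for Hey1 and -0.0109 to 0.19 for Hes6. Depth limits Psenen, Hey2 and Aph1a most, which have the lowest mean CPM of the members.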
